A study of Mus musculus with 4 samples.

Results

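The forkhead family of transcription factor genes (Fox genes) was examined for binding by INO80, the catalytic subunit of a chromatin remodeller that moves and edits nucleosomes, in mouse spermatocytes at early zygotene of meiosis. The members were 43 Fox genes listed by name, out of 21887 protein-coding genes, and all 43 symbols were found in the RefSeq table of GRCm38.p6. Of the 2847 INO80 peaks that the authors kept as reproducible between replicates, 18 carried 15 of these genes as their nearest gene. Fox genes were reached by another 2 peaks assigned to neighbouring non-coding genes, which makes 20 peaks at 17 genes.

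The data were chromatin immunoprecipitation and sequencing (ChIP-seq) libraries, 2 of INO80 and 2 of input, all from testis of DBA/2J x C57BL/6J F1 mice. Fertilysin, which holds germ cells before meiosis, was injected for 7 days from 2 dpp (days after birth), and retinoic acid at 9 dpp released them together. Cells were collected 8 days later, and a 28% Percoll gradient was used to enrich spermatocytes. INO80 replicates 1 and 2 had 98.1 and 82.6 uniquely mapped megareads, against 70.4 and 39.6 in the inputs. The INO80 replicates' own peak lists held 5123 and 7836 regions. The labels do not say how many animals each library pooled, so the spread between replicates may be partly technical. Each INO80 replicate carries its own date in its peak names, so replicate and date cannot be told apart. The labels list an adaptase library kit for INO80 that they do not list for the inputs. For the inputs the files used here give read numbers but no regional signal, so no Fox gene could be set against input. Peak lists hold no expression, so the labelled cell type was not checked against marker genes.

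Fox proteins share the winged-helix forkhead domain, with which they bind DNA, and are grouped by letter according to the sequence of that domain. FOXO proteins are held outside the nucleus when insulin and PI3K signalling activates the kinase AKT. In mice Foxo1 maintains spermatogonial stem cells and Foxo3 keeps primordial oocytes dormant. Many other members pattern embryonic tissues (Foxa, Foxc, Foxd, Foxe, Foxf), whereas Foxj1 drives motile cilia and Foxm1 drives mitotic gene expression.

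The promoters that carry the main contrasts are shown first, as RefSeq gives them for GRCm38.p6, from 250 bases before to 50 bases after the transcription start site (TSS), 5′ to 3′ along the gene. Capitals mark CpG dinucleotides. Foxo1, Foxo3 and Foxi3 each had a reproducible INO80 peak over this window.
Foxo1, chr3:52268087-52268386, plus strand: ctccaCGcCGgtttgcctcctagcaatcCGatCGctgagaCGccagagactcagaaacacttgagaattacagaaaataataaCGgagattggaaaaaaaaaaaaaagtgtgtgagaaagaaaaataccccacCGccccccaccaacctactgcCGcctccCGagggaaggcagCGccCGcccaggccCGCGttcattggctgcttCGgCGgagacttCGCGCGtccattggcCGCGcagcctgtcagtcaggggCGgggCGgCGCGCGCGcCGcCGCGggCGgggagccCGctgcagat
Foxo3, chr10:42276646-42276945, minus strand: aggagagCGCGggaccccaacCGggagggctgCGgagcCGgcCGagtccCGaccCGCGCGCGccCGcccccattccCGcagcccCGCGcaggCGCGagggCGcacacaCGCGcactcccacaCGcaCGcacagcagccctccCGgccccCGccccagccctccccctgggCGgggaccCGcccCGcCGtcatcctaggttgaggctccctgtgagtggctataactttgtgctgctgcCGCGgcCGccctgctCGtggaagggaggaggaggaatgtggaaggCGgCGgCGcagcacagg
Foxi3, chr6:70956356-70956655, plus strand: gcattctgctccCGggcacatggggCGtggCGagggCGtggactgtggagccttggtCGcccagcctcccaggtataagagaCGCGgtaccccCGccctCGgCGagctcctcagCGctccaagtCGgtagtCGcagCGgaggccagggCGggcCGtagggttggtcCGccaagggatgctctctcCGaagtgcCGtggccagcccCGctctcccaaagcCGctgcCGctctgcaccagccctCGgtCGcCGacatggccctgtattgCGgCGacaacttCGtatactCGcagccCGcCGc

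Foxp1, a repressor of the FOXP branch, has 3 entries in the promoter table, of which the outermost and the innermost lay under reproducible peaks and the middle one under no peak of any list.
Foxp1, chr6:99520944-99521243, minus strand: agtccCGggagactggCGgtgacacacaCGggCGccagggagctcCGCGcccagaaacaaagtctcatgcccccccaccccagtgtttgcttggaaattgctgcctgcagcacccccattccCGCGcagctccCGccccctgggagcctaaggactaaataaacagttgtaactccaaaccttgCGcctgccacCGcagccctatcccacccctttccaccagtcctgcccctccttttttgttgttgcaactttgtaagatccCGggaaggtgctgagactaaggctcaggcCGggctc
Foxp1, chr6:99266466-99266765, minus strand: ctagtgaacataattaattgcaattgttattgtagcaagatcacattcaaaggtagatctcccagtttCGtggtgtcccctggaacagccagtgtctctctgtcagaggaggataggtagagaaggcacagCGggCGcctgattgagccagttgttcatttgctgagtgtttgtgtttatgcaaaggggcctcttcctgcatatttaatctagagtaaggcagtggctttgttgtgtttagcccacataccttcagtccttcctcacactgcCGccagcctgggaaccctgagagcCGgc
Foxp1, chr6:99028249-99028548, minus strand: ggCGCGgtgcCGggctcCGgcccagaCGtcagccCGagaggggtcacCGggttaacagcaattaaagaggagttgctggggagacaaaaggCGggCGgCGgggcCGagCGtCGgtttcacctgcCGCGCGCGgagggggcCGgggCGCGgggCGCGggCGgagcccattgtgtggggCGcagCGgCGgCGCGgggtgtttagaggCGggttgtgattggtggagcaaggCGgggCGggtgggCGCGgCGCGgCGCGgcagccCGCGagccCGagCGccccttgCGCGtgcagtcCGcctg

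Foxj3 and Foxk2 had no reproducible peak. The Foxj3 window lay under a weak peak in replicate 2's list, and the Foxk2 window under none.
Foxj3, chr4:119539411-119539710, plus strand: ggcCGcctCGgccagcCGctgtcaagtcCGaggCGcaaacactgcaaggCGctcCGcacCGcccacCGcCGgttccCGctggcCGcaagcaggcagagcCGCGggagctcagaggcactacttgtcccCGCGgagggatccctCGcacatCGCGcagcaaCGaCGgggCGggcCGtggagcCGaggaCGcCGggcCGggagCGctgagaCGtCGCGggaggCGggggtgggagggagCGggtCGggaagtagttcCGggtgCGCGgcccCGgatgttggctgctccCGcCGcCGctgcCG
Foxk2, chr11:121259737-121260036, plus strand: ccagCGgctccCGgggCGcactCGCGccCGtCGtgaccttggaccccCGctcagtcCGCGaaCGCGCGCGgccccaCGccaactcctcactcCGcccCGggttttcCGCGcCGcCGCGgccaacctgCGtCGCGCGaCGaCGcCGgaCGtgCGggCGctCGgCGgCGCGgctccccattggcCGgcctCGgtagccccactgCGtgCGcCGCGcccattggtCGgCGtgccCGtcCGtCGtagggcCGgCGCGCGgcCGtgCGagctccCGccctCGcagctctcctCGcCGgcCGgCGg

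These windows held 31 CpG in Foxo1, 35 in Foxo3, 31 in Foxi3, 42 in Foxj3 and 59 in Foxk2. At Foxp1 the outermost start held 13, the middle one 5 and the innermost one 44. Over all 32851 promoter entries of the table the median was 7 CpG, with quartiles of 3 and 20. The 9 Fox windows under a reproducible peak held 10 to 44 CpG with a median of 31, against 3 to 59 with a median of 14 for the 24 Fox windows under none. Foxj3 and Foxk2 are thus at the high end of the windows without a reproducible peak, most of which held fewer CpG, such as Foxr2 with 3 and Foxi2 with 5. A promoter entry existed for 28 of the 43 members (65.1%), below the 80% needed for a check over the family, so a family-wide check of CpG content is void and these numbers describe the listed entries alone. The forkhead core TGTTTAC, searched on both strands, occurred in 1 of the 33 Fox entries (Foxa1) and in 3.65% of all entries. The core of YY1, a DNA-binding partner of the INO80 complex, searched as AANATGGC on both strands, occurred in 0 of the 33 and in 6.05% of all entries. A missing match says only that these letters are not in this window.

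How many Fox genes carried INO80 was asked first. Of the 43 Fox genes, 13 had an assigned reproducible peak no more than 1 kb from the TSS (30.2%, 95% Clopper-Pearson interval 17.2 to 46.1), against 9.93% of all protein-coding genes. These 13 were Foxo1, Foxo3, Foxp1, Foxp2, Foxc1, Foxc2, Foxl2, Foxq1, Foxd2, Foxe1, Foxe3, Foxi3 and Foxn2. Foxa1 and Foxd4 joined within 5 kb, which gave 15 of 43 (34.9%) against 11% of all genes. At any distance it was the same 15, against 11.8% of all genes. When any reproducible peak within 1 kb of a RefSeq gene end counted, 16 of 43 Fox genes (37.2%) had one, against 11.5%. That set gained Foxb1, Foxf1 and Foxd4 over the first. With q of 0.001 or less in both replicates 12 of 43 remained (27.9%), without Foxc1, against 9.39% of all genes. The members were chosen with earlier results of these data known, and the family was not tested against the genome.

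Each replicate's own list held more of the family. A peak lay in or within 1 kb of the gene for 24 Fox genes in replicate 1 (55.8%), against 23.5% of all protein-coding genes. In replicate 2 this was so for 32 Fox genes (74.4%), against 32.4%. The 24 Fox genes of replicate 1 all had a peak in replicate 2 as well (55.8%), against 21.6% of all genes with a peak in both lists. Foxo6, Foxj2, Foxj3, Foxk1, Foxa2, Foxa3, Foxi2 and Foxn4 had a peak in replicate 2's list alone (8 of 43, 18.6%), against 10.8% of all genes. No peak of either list touched 11 Fox genes (25.6%), against 65.6% of all genes. They were Foxo4, Foxp3, Foxj1, Foxk2, Foxi1, Foxn1, Foxh1, Foxm1, Foxr1, Foxr2 and Foxs1. The replicate lists count peaks over the whole gene, so long genes such as Foxn3 have more room for one.

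**Figure D1:**
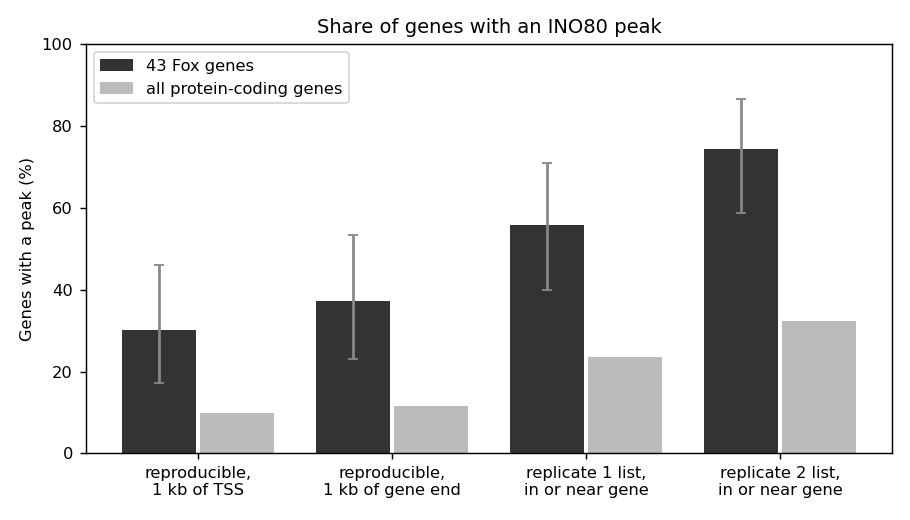
Percentage of genes with an INO80 peak (vertical axis) under 4 definitions, for the 43 Fox genes (dark bars, with 95% Clopper-Pearson intervals that cover counting error only) and all 21887 protein-coding genes (light bars). The Fox share is the higher of the pair under each definition shown, at 30.2% against 9.93% for reproducible peaks within 1 kb of the TSS.

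**Figure D2:**
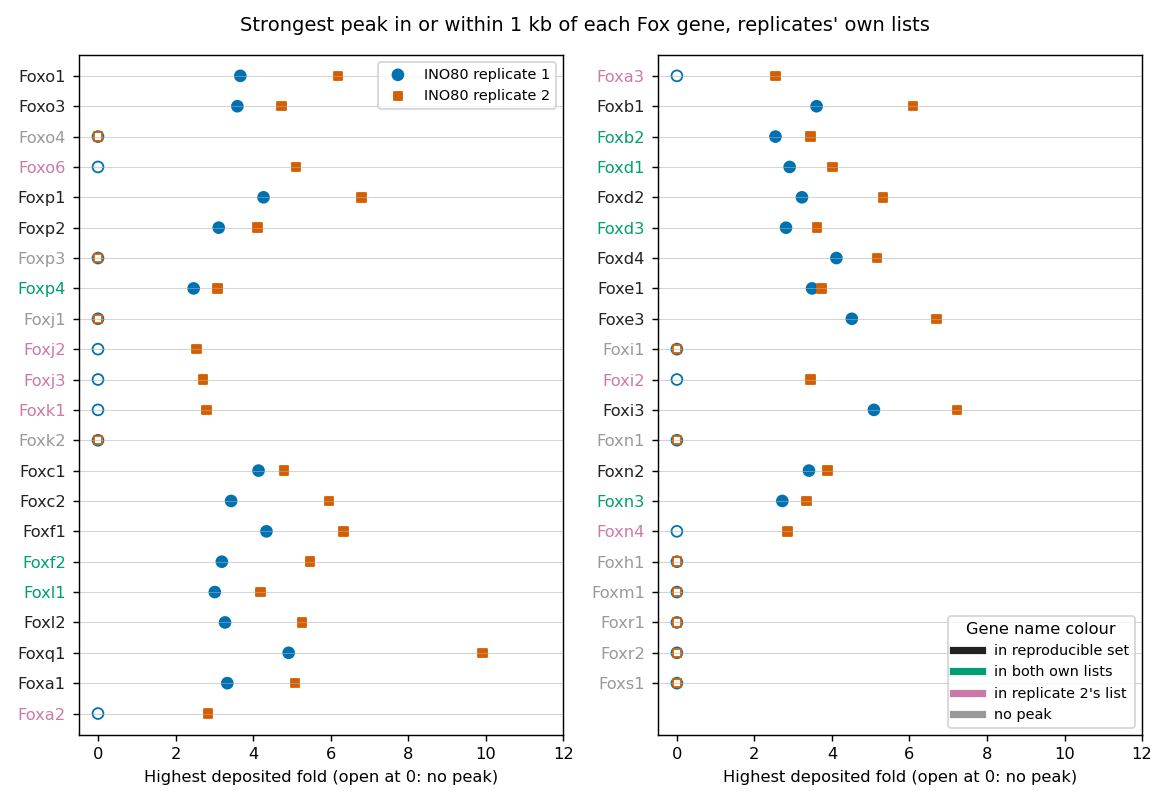
Highest deposited fold enrichment (horizontal axis) of the peaks in or within 1 kb of each of the 43 Fox genes, in replicate 1 (circles) and replicate 2 (squares); open symbols at 0 stand for no peak in that list. Name colours give the peak status, and 11 genes have open symbols in both replicates.

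The FOXO genes were split. Foxo1 had a peak of 3213 bp on chromosome 3, 52267498 to 52270710, centred 767 bp downstream of its TSS in exon 1 of 3. Its deposited fold enrichment, the peak caller's own value, was 3.67 in replicate 1 and 6.19 in replicate 2. Foxo3 had a peak of 4405 bp on chromosome 10, 42274594 to 42278998, centred 54 bp upstream of the TSS, and the widest of the peaks assigned to a Fox gene. The Foxo3 fold was 3.60 in replicate 1 and 4.73 in replicate 2. Foxo1 was thus the higher in both replicates, but only narrowly in replicate 1. The means were 4.93 ± 1.78 for Foxo1 and 4.17 ± 0.805 for Foxo3 (SD, n = 2 each). Both genes were read in the same 2 libraries, so these SDs do not measure the spread of the difference between them. That difference was not tested. Foxo6, expressed mainly in brain, had peaks near both gene ends in replicate 2's list, with folds of 5.11 and 3.80, and none in replicate 1. Foxo4, the X-linked member, had no peak in any list. The family therefore had 2 of 4 FOXO genes in the reproducible set.

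Among the FOXP genes, which encode repressors that act as dimers, Foxp1 had 3 reproducible peaks. No other Fox gene had more than 2, and 5 of the 2586 protein-coding genes assigned a reproducible peak (0.193%) had 3 or more. Foxp1 is also the longest of the listed Fox genes, with 597405 bp, and the count was not set against gene length. The strongest Foxp1 peak spanned 4079 bp on chromosome 6, 99520023 to 99524101, with folds of 4.27 and 6.80 in replicates 1 and 2. It was classed as intergenic and centred 1069 bp upstream of the outermost start printed above, while the RefSeq gene extends beyond its centre. The peak at the innermost start spanned 99027014 to 99029757 and was centred 87 bp upstream of it, with folds of 3.40 and 5.98. The third lay in an intron at 99062389 to 99064140, 34966 bp upstream of its assigned TSS, with folds of 3.10 and 4.18. Foxp2, needed for lung and brain development, had a promoter peak of 3927 bp at 14898734 to 14902660 of chromosome 6. It was centred 652 bp upstream of the TSS, with folds of 3.12 and 4.11. The replicate peaks under it were narrower, with 560 bp in replicate 1 (14901169 to 14901728) and 2751 bp in replicate 2. At Foxp4 the peaks of both lists overlapped at the gene end, with folds of 2.47 and 3.09, but no reproducible peak was listed. Foxp3, the X-linked regulator of regulatory T cells, had no peak. FOXP thus also had 2 of 4 members in the reproducible set.

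No FOXJ or FOXK gene was in the reproducible set. With 0 of 3 FOXJ and 0 of 2 FOXK genes, the Clopper-Pearson upper limits were 70.8% and 84.2%, so a share like the 2 of 4 of FOXO or FOXP lies within these limits, as does the 9.93% of all protein-coding genes. The difference was not tested. Foxj2 had a 419 bp peak and Foxj3, which mouse spermatogenesis requires, a 445 bp peak, both at the gene start and both in replicate 2's list alone. Their folds were 2.54 and 2.71. Foxk1, a repressor of autophagy genes, had a 1193 bp peak with a fold of 2.80 in replicate 2 alone. Foxj1 and Foxk2 had no peak. The replicate 2 folds at Foxj2, Foxj3 and Foxk1 were lower than those at Foxo1, Foxo3, Foxp1 and Foxp2, and their peaks were narrower than the corresponding replicate 2 peaks, which ran from 2605 to 4366 bp at the annotated starts of those 4 genes.

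**Figure D3:**
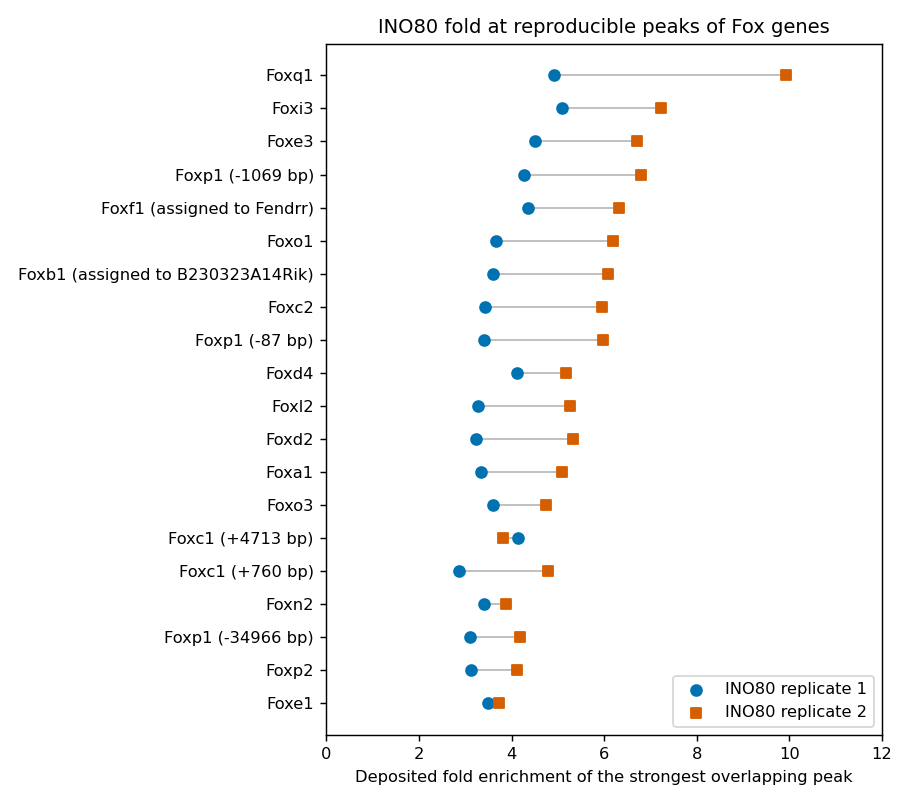
Deposited fold enrichment (horizontal axis) of the strongest peak of replicate 1 (circles) and replicate 2 (squares) under each of the 20 reproducible peaks at Fox genes, ordered by their mean. Replicate 2 is higher at 19 of the 20, and Foxq1 has the highest value, 9.92 in replicate 2.

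The FOXC and FOXF branches pattern mesoderm and its derivatives. All listed members of FOXC, FOXF, FOXL and FOXQ but Foxl2 sit in clusters on chromosomes 13 and 8. In the chromosome 13 cluster Foxq1, which acts in hair differentiation, had the peak with the highest mean fold of the family, 2979 bp at 31557482 to 31560460. It was centred 801 bp downstream of the TSS in the sole exon. Its fold was 4.92 in replicate 1 and 9.92 in replicate 2. These values lay at the 93.4th and 99.6th percentiles of the respective lists. In replicate 1 Foxi3 was higher, with 5.08. Foxc1, active in eye and vessel development, had a peak of 3277 bp at 31805768 to 31809044, centred 760 bp downstream of the TSS in its sole exon, with folds of 2.87 and 4.80. Another peak of 1440 bp at 31810640 to 31812079, past its 3' end and centred 4713 bp from the TSS, had folds of 4.14 and 3.82. This 3' peak was the one reproducible Fox peak whose fold was higher in replicate 1. Foxf2, between Foxq1 and Foxc1, had no reproducible peak, although replicate 2 listed 2 peaks with folds of 4.70 and 5.46. The second of these overlapped a replicate 1 peak with a fold of 3.20. This replicate 1 value was above those of the reproducible peaks at Foxp2 and at the Foxc1 gene, so the fold alone did not separate Foxf2 from them.

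In the chromosome 8 cluster Foxc2, needed for lymphatic vessels, had a peak of 3503 bp at 121115124 to 121118626, centred 704 bp downstream of the TSS in its sole exon, with folds of 3.43 and 5.96. Foxf1, a regulator of lung mesenchyme that lies 28.0 kb from Foxc2, had a peak of 4867 bp at 121080617 to 121085483 across its start. The authors assigned that peak to Fendrr, the non-coding RNA gene 1275 bp away, so Foxf1 is missing from the assigned set. The folds of that peak were 4.35 and 6.33, above those of Foxc2 in both replicates. In replicate 1, however, the peak ran from 121082603 to 121084283 and ended before the RefSeq start of Foxf1 at 121084386. Only the replicate 2 peak crossed that start. Foxl1, an intestinal mesenchyme gene 8.79 kb beyond Foxc2, had peaks in both lists that overlapped, with folds of 3.01 and 4.20, but none in the reproducible set. Foxl2, which maintains ovarian identity, had a peak of 3479 bp on chromosome 9, 98953828 to 98957306, with folds of 3.28 and 5.27. It reached over the start of Foxl2 into the non-coding gene Foxl2os, 296 bp away, whose transcript the authors' class names. The centre lay 40 bp upstream of the assigned TSS.

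The FOXA, FOXB, FOXD, FOXE and FOXI genes act in endoderm, brain, neural crest, lens, thyroid and ectoderm. Foxi3, of tooth and hair placodes, had the second highest mean fold of the family and the highest fold in replicate 1, with a peak of 2356 bp on chromosome 6, 70955382 to 70957737, and folds of 5.08 and 7.23. It was classed as promoter and centred 47 bp upstream of the TSS. Foxe3, a lens gene, followed with folds of 4.51 and 6.70 at a peak of 1881 bp on chromosome 4, 114924539 to 114926419, centred 588 bp downstream of the TSS in its sole exon. These and Foxq1 were the 3 Fox genes with a fold of 4 or more in both replicates at an assigned peak within 1 kb of the TSS. They made 6.98% of the family, against 3.51% of all genes. The outermost Foxp1 peak and the peaks at Foxf1 and Foxd4 also reached 4 in both replicates. They fell outside this definition by their distance or assigned gene. Foxd2 lies 15.5 kb from Foxe3 and had a peak of 2437 bp at 114906996 to 114909432, centred 684 bp downstream of the TSS in its sole exon. Its folds were 3.23 and 5.32. Foxe1, a thyroid gene on the same chromosome, had a peak of 3370 bp at 46342313 to 46345682, classed as 5' UTR and centred 353 bp downstream of the TSS. Its folds were 3.49 and 3.73, the smallest difference between replicates among the reproducible Fox peaks. Foxd4 had a peak of 3636 bp on chromosome 19, 24897199 to 24900834, classed as transcription end site and centred 2293 bp from the TSS, with folds of 4.12 and 5.17. By its extent in the reproducible set it covered 91.2% of the gene. Foxa1, a pioneer factor of endoderm, had a peak of 1665 bp on chromosome 12, 57542044 to 57543708, in exon 2 of 2 and centred 3235 bp from its TSS. Its folds were 3.34 and 5.08, and the authors' table of selected genes lists it under chromatin remodelling.

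Foxb1, of the hypothalamus, had the widest reproducible peak at any Fox gene, 5850 bp on chromosome 9, 69758617 to 69764466, with folds of 3.60 and 6.09. Its width was 5719 bp in replicate 2's list but 1940 bp in replicate 1's, where the Foxo3 peak was wider with 3477 bp. The reproducible peak was assigned to the non-coding gene B230323A14Rik, which lies 205 bp from Foxb1, although the class names a Foxb1 transcript. Foxd1, of the kidney stroma, had overlapping peaks in both lists, with folds of 2.91 and 4.02. Foxd3, of the neural crest, had 2.82 and 3.61. Foxb2 had a peak in each list (2.54 and 3.45) that did not overlap each other. Foxa2, Foxa3 and Foxi2 had peaks in replicate 2 alone, with folds of 2.84, 2.55 and 3.44. Foxi1 had none.

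Of the FOXN genes, Foxn2 had a peak of 1585 bp in its 5' UTR, on chromosome 17, 88440285 to 88441869, centred 373 bp downstream of the TSS, with folds of 3.41 and 3.88. Foxn3 had overlapping peaks in both lists, inside the gene and not within 1 kb of its ends, with folds of 2.72 and 3.34. Foxn4, a retinal factor, had a replicate 2 peak with a fold of 2.86. Foxn1, the thymus gene mutated in nude mice, had no peak. The mitotic factor Foxm1, the SMAD partner Foxh1, and Foxr1, Foxr2 and Foxs1 had none either.

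Fox genes with peaks in both lists but none in the reproducible set had a lower median fold in both replicates than those with a reproducible peak, with overlapping ranges. The 17 genes with a reproducible peak had highest folds of 3.12 to 5.08 in replicate 1, with a median of 3.60. The 7 genes with peaks in both lists alone had 2.47 to 3.20, with a median of 2.82. In replicate 2 the 17 had 3.73 to 9.92 (median 5.32) and the 7 had 3.09 to 5.46 (median 3.61). The 8 genes with a peak in replicate 2 alone had 2.54 to 5.11 there. The reproducible set was chosen on both replicates, so this order is a description of that choice and was not tested.

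The peaks at Fox genes had a larger median width than the reproducible set as a whole, a difference that was not tested. The 18 peaks assigned to Fox genes had a median width of 3096 bp (range 1440 to 4405), against 1781 bp for all 2847 reproducible peaks. A width above 3000 bp was found for 9 of the 18 (50.0%), against 16.4% of all peaks. Their folds were close to those of all peaks, with medians of 3.46 against 3.69 in replicate 1 and 5.22 against 5.08 in replicate 2. Replicate 2 was higher at 17 of the 18 (94.4%), against 96.3% of all peaks, and the median ratio of replicate 2 to replicate 1 was 1.50 against 1.37. The width depended on the list. Under the 13 Fox promoter peaks, replicate 2 peaks had a median of 2961 bp and replicate 1 peaks 1608 bp. The reproducible extents of the same 13 had a median of 3213 bp. Widths in the single lists were not summarised over all peaks. The comparison with all peaks therefore holds for the reproducible extents alone.

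**Figure D4:**
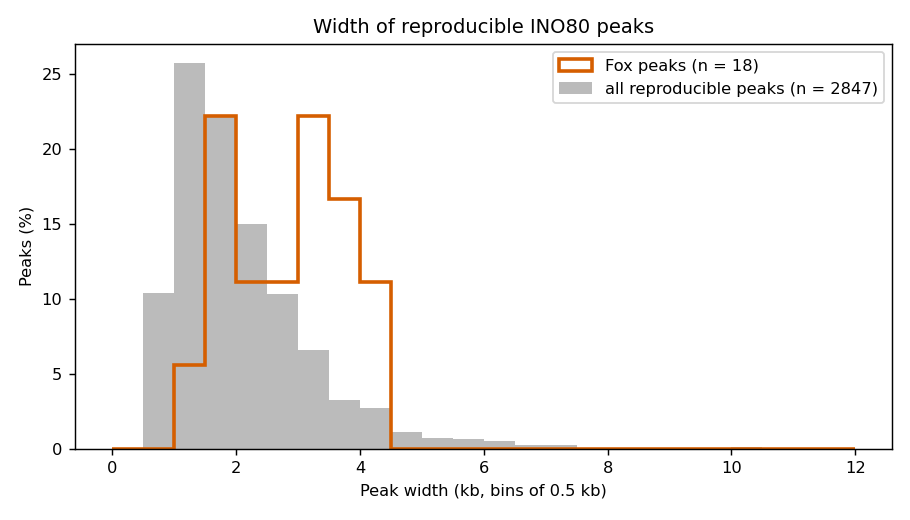
Percentage of peaks (vertical axis) by width in bins of 0.5 kb (horizontal axis), for the 18 reproducible peaks assigned to Fox genes (outline) and all 2847 reproducible peaks (filled). Bins above 3000 bp hold 50.0% of the Fox peaks and 16.4% of all peaks.

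How much of a gene the peak covered varied among the shorter Fox genes. For 6 genes the class named the sole exon of the gene (Foxc1, Foxc2, Foxd2, Foxe1, Foxe3 and Foxq1), and the peak covered 60.1% of Foxc1 to 95.7% of Foxe1. Foxf1, with 3769 bp shorter than Foxc1 with 3990 bp, was covered to 29.1%, and Foxi3, of 4461 bp, to 25.4%. Exon was the class of 7 of the 18 Fox peaks (38.9%), against 20.6% of all reproducible peaks. Promoter was the class of 5 (27.8%), against 30.8%, and intron that of 1 (5.56%), against 27.7%. Transcription end sites were the class of 2 (11.1%), at Foxc1 and Foxd4, against 1.55%. Within 1 kb of the TSS, 8 of 13 Fox peaks (61.5%) were centred downstream, against 77.1% of all such peaks. Their median offset was 373 bp downstream, against 238 bp.

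**Figure D5:**
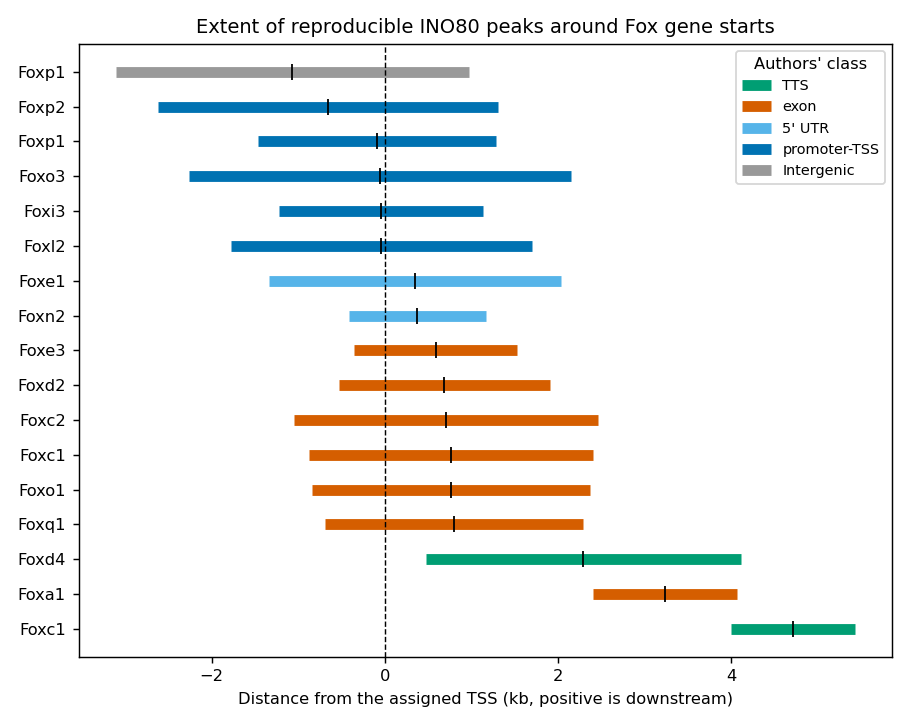
Extent of 17 of the 18 reproducible peaks assigned to Fox genes (bars, black tick at the centre) against distance from the assigned TSS in kb (horizontal axis, positive is downstream), coloured by the authors' class; the intronic Foxp1 peak, 34966 bp upstream, is left out. Peaks of the exon class start upstream of the TSS, except at Foxa1.

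The authors' own term table was examined for the family. The authors' deposited table lists 15 genes under the fork head transcription factor domain of InterPro, and all 15 were those with an assigned peak here. The enrichment in the authors' deposited table was 2.99-fold over a background with 45 such genes, with an adjusted p of 0.0137. For the Pfam fork head domain the authors' deposited table gives 2.83-fold and an adjusted p of 0.0291, and for the annotated DNA-binding region 12 genes, 2.31-fold and an adjusted p of 0.564. For the InterPro conserved site of the domain the authors' deposited table gives 11 genes, 3.29-fold and an adjusted p of 0.0434. These entries rest on the same peaks and are not independent of the counts above.

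Genes around the Fox proteins in their pathways were compared in 6 lists of 99 genes. Of the 99, 20 had a promoter peak of the reproducible set (20.2%), against 9.93% of all protein-coding genes. The lists were chosen with earlier results of these data known, so the shares given here describe these lists alone. Upstream of FOXO, 4 of 24 insulin, PI3K and AKT genes had one (16.7%). The strongest was at Igf1r, the receptor of insulin-like growth factor, with folds of 4.90 and 9.23 and a width of 4839 bp. The kinase gene Sgk3 (4.64 and 5.08 at the stronger of its peaks), the PI3K subunit gene Pik3r1 (3.18 and 4.20) and the kinase gene Sgk1 (3.22 and 4.11) were the others. In replicate 1's own list 12 of the 24 had a peak in or within 1 kb of the gene (50.0%), against 23.5% of all genes. In replicate 2's list 14 had one (58.3%), against 32.4%.

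Among 12 genes whose products modify or export FOXO, 4 had a promoter peak (33.3%), against 9.93% of all genes. They were the AMPK catalytic subunit genes Prkaa1 (3.88 and 5.02) and Prkaa2 (3.55 and 3.72), the deubiquitinase gene Usp7 (3.37 and 4.24) and the acetyltransferase gene Ep300 (3.48 and 3.76). Own-list counts for these 12 were 4 in replicate 1 (33.3%, against 23.5% of all genes) and 5 in replicate 2 (41.7%, against 32.4%). Of 25 textbook FOXO targets 6 had a promoter peak (24.0%), against the same 9.93%. Their own-list count was 13 in each replicate (52.0%), against 23.5% of all genes in replicate 1 and 32.4% in replicate 2. The strongest was Kit, the stem cell factor receptor, with 4.81 and 7.22. Next were the CDK inhibitor genes Cdkn1a (4.12 and 6.81) and Cdkn1b (4.66 and 6.12) and the GDNF receptor gene Ret (4.14 and 6.04). The occupied targets also included Bcl2l11 and Sall4. Kit, Ret and Sall4 are genes of undifferentiated and differentiating spermatogonia in mouse.

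Of 16 partner genes of other Fox proteins, 3 had a promoter peak (18.8%, against 9.93% of all genes), the Polycomb-associated gene Asxl2 (4.48 and 6.68), the signal transducer gene Smad3 (3.30 and 5.14) and Nfatc1 (3.04 and 4.32 at the wider of its promoter peaks). Of 12 genes of the FOXJ1 ciliary programme, Mcidas (3.42 and 4.57) and Ccno (3.26 and 3.98) had one (16.7%). Of 10 genes of the FOXM1 mitotic programme, Mybl2 had one (5.27 and 5.48), a share of 10.0% that is near the 9.93% of all genes. In replicate 1's own list the partners had 5 genes with a peak (31.2%), the FOXJ1 programme 5 (41.7%) and the FOXM1 programme 3 (30.0%), against 23.5% of all genes. In replicate 2's list the partners had 6 (37.5%), the FOXJ1 programme 6 (50.0%) and the FOXM1 programme 3 (30.0%), against 32.4%. The own-list shares of the partners, on 5 and 6 genes, were near the background, while their promoter share, on 3 genes, was 18.8% against 9.93%. The own-list shares of the FOXM1 programme, on 3 genes, were near the background too. These counts, like those of the FOXO modifiers, are too small to rank the lists. No list was tested against the genome.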

How the data were processed

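Mouse testis libraries of INO80 (2) and input (2) were profiled by ChIP-seq. Per the submitters' processing notes, the tools were MACS2 2.2.7.1, deepTools 3.4.3, SAMtools 1.11, Picard 2.21.2, BWA and fastp and the builds GRCm38 and mm10, and no settings are named. The authors deposited a broad peak list per INO80 replicate with a fold enrichment ratio, a −log10 p, a −log10 q and a score per peak, the score being 10 times the −log10 q without decimals. No source used here names the control behind the peak calls. The authors also deposited rounded read numbers per library and a peak set reproducible between replicates, at an irreproducible discovery rate below 0.05 per its title, with nearest gene, class and distance to TSS but no signal. Their term table holds deposited gene counts, fold enrichments and p-values.

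Genes of the peak table were matched to RefSeq (GRCm38.p6) by Entrez ID, and 2678 of 2847 peaks reached a protein-coding gene. The fold of a reproducible peak was that of the strongest replicate peak overlapping it by at least 1 bp. A gene was occupied when an assigned reproducible peak lay within 1 kb of its TSS. Intervals are 95% Clopper-Pearson and cover counting error only. Every Fox gene is named, with full values for those with a reproducible peak. Of each pathway list the 4 strongest occupied genes are given with values. Matching of peaks to gene ends and gene spans was tested on simulated peaks. The authors' assigned genes and TSS distances, behind the promoter counts, were taken as given. Positions count from 1. Alternatives were other windows, assignments, thresholds and single replicates. The members and gene lists were chosen with earlier results of these data known. No test across genes was run. Enrichment over annotation and repeat classes was not used here. Python 3.11.15, pandas 2.3.3 and SciPy 1.17.1 were used.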

Additional observations from a re-analysis of the deposited data

How the results depend on the processing

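The count of 13 Fox genes with a promoter peak became 15 with a 5 kb window, 15 at any distance, 16 by gene ends and 12 with q of 0.001 or less in both replicates, which dropped Foxc1. It was 3 with a fold of 4 or more in both, a limit above the median fold of replicate 1. Over single replicates' own lists, which also count the whole gene, it was 24 to 32. The median width of 3213 bp was 1608 to 2961 bp by single lists. The same single-list counts were 12 to 14 for the FOXO upstream list (4 in the reproducible set), 13 in both replicates for FOXO targets (6), 5 to 6 for partners of other Fox proteins (3), 5 to 6 for the FOXJ1 programme (2) and 3 in both for the FOXM1 programme (1). The median fold of 4.27 was 3.43 to 5.32 by single replicates and 4.27 over the 7 promoter peaks covered to at least 50% in both lists. At 50% overlap, 9 of the 20 Fox peaks were covered to that extent in replicate 1, and 20 of 20 in replicate 2. For single Fox peaks, leaving out a replicate of 2 moves the mean by less than the SD by construction and tests nothing. No paired analysis was possible because the input libraries have no regional values in the files used here. Absence from a list means that no peak passed the caller at that depth, not that INO80 was absent.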
